A study of Homo sapiens with 6 samples.

Results

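The small GTPases RAB27A and RAB27B and the proteins that act with them in melanosome transport and vesicle release formed a set of 10 genes, namely RAB27A, RAB27B, MLPH, MYRIP, MYO5A, UNC13D, SYTL1, SYTL2, SYTL4 and EXPH5. They are 10 of the 20461 Ensembl genes in the deposited tables, found by symbol. They were chosen by the measured difference in counts and FPKM between the groups, as RAB27 effectors that may move in opposite directions, so these differences are given as a description, with no p-value. The RNA came from ARPE-19, a human retinal pigment epithelial (RPE) cell line. All cells had been transduced with lentivirus at a multiplicity of infection of 10, selected with 4 µg/ml puromycin and kept for 48 h in medium with 37.5 mM glucose. The 3 control libraries came from cells with the control lentivirus, and the 3 PDZK1 libraries from cells with the PDZK1 overexpression lentivirus, PDZK1 being a scaffold protein of the plasma membrane. The study's methods speak of independent experiments in general but do not say that the libraries of a group came from separate transductions or cultures, so the p-values given for other genes measure only the spread between these libraries, which may be technical. The cells were selected with antibiotic as stable lines, and no normal-glucose group was used here.

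RAB27A and RAB27B sit on the membrane of lysosome-related organelles and secretory vesicles in their GTP-bound form, and each recruits effectors that decide what the vesicle does next. Melanophilin (MLPH) links RAB27A to the actin motor myosin Va (MYO5A), which holds melanosomes at the cell edge, and MYRIP does the same with myosin VIIa in RPE cells. UNC13D (Munc13-4), the synaptotagmin-like proteins (SYTL) and EXPH5 tether and dock vesicles at the plasma membrane. Inherited loss of RAB27A, MYO5A or MLPH causes Griscelli syndrome, in which pigment transport fails, and loss of UNC13D blocks the release of cytotoxic granules.

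Between the groups, the melanosome linker MLPH was higher and the docking factor UNC13D lower in every PDZK1 library. RAB27B was lower by a small amount, and RAB27A, to which MLPH and UNC13D bind, differed by less than the spread between libraries. The fold for MLPH was 1.81 (PDZK1 over control, 95% interval 1.66 to 1.96) and that for UNC13D was 0.518 (0.468 to 0.572). Of the 10 genes, 9 passed the filter on low counts. An edgeR quasi-likelihood test over all 13645 tested genes, with Benjamini-Hochberg adjustment at a threshold of 0.05, called 3 of the 9, MLPH higher and UNC13D and RAB27B lower. The share called over all genes was 3.83% (1.41% up and 2.41% down), and DESeq2, which called the same 3 members, called 5.81% of 13641 genes. For 5 of the 9, all libraries of 1 group exceeded all of the other in reads scaled to a common depth (CPM), as for 23.9% of tested genes. Since this contrast was used to choose the genes, nothing is read from these counts. The median log2 fold change of the 9 genes was 0.0076, beside -0.00025 over all tested genes, with 5 higher and 4 lower. In bulk RNA, fewer cells with a transcript and less of it per cell cannot be told apart.

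**Figure D1:**
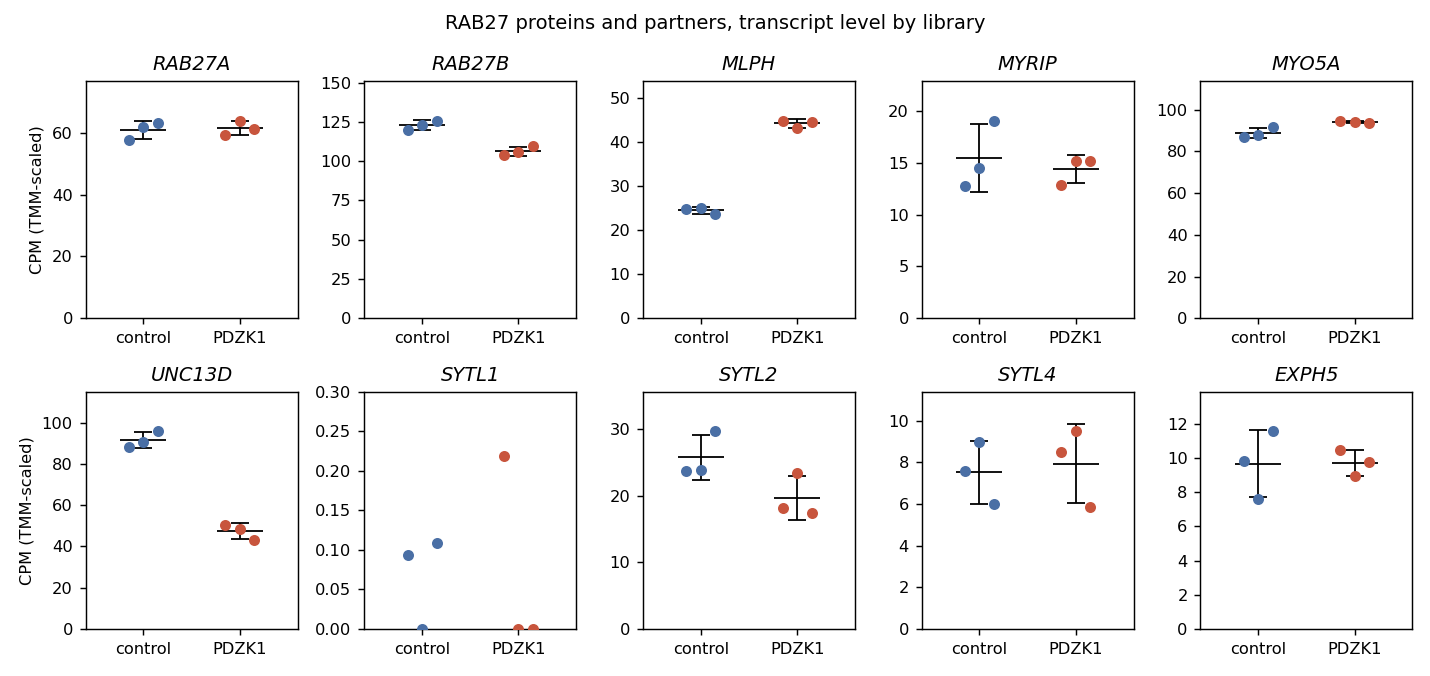
CPM (scaled by TMM, the trimmed mean of M-values) of each gene in the 3 control and 3 PDZK1 libraries. Points are libraries, and bars are the mean with its SD (left out for SYTL1, which had at most 7 counts). The MLPH libraries sit at 23.7 to 25.1 CPM in the controls and 43.1 to 44.9 CPM with PDZK1, and the UNC13D libraries at 88.3 to 95.9 and 43.1 to 50.6 CPM.

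Total counts ran from 27970618 to 32804567 per library. PDZK1 checked the labels, with 18 to 23 counts in the control libraries and 2541 to 3020 in the PDZK1 libraries. Control replicate 3 stood apart on the second principal component, which held 21.1% of the variance. RPE65 and TTR, which mark differentiated RPE, had 0 counts in every library, while OTX2 (63.6 and 63.8 CPM in control and PDZK1 libraries), MITF (42.2 and 39.4 CPM) and RLBP1 (3.81 and 4.05 CPM) were present. Of 15 listed RPE markers 13 were tested, with 6 higher and 7 lower, and 0 were called by edgeR or by DESeq2. The 2 at an unadjusted edgeR p under 0.05 were both lower with PDZK1. They were LRAT (log2 fold change -0.82, interval -1.52 to -0.13) and RAX (-0.31, interval -0.52 to -0.11). SERPINF1 was at -0.83 (interval -1.66 to 0.011). The summed level of the list was 1942 to 2178 CPM in control and 1991 to 2460 CPM in PDZK1 libraries. Most of this sum was KRT8 (means of 1152 and 1161 CPM) and KRT18 (782 and 776 CPM), so it says little about the other markers. BEST1 had 11459 counts in PDZK1 replicate 1 and 124 to 181 in the others. The 7 melanocyte markers summed to 1.04 to 1.23 CPM in control and 0.999 to 1.54 CPM in PDZK1 libraries, with TYR at most at 2 counts and SOX10 at most at 5. The 7 immune markers summed to at most 0.217 and 0.366 CPM, with PTPRC, CD3E and NKG7 among those at 0. The 4 endothelial markers summed to 5.11 to 5.37 and 3.94 to 4.40 CPM, with CDH5 at 0, and the 7 fibroblast markers to 68.1 to 81.5 and 82.3 to 90.3 CPM, with COL1A2, LUM and DCN at 0. Most of the endothelial sum was KDR (means of 4.91 and 3.55 CPM), and most of the fibroblast sum was PDGFRB (70.8 and 81.3 CPM). Neither gene was called. Of the 2 endothelial markers tested, KDR was at a log2 fold change of -0.47 (interval -0.78 to -0.15) and VWF at 0.68 (-1.07 to 2.43). All 3 fibroblast markers tested were higher, with 2 at an unadjusted edgeR p under 0.05 and none called. These 2 were COL1A1 (0.53, interval 0.17 to 0.89) and PDGFRB (0.20, interval 0.047 to 0.35). The endothelial and fibroblast sums did not overlap between the groups, and their part in the results was not tested.

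RAB27A (ENSG00000069974, chromosome 15, 55202966 to 55319113, minus strand, GRCh38), the GTPase that carries melanosomes and cytotoxic granules, had 57.6, 61.8 and 63.2 CPM in the control libraries. In the PDZK1 libraries it had 59.4, 64.0 and 61.3 CPM. The groups overlapped, and the log2 fold change was 0.016 (95% interval -0.11 to 0.14). On log2(FPKM + 0.1) with limma it was 0.15 and not called, and the transcript length implied by its FPKM varied between libraries. PIGB on the opposite strand and PIGBOS1 on the same strand overlap RAB27A, with means of 22.7 and 21.3 CPM and 7.12 and 7.17 CPM in control and PDZK1 libraries, and the strand setting of the counts is not stated.

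RAB27B (ENSG00000041353, chromosome 18, 54717860 to 54895516, plus strand), the close relative of RAB27A known from secretory epithelia and exosome release, had 119.6, 123.1 and 125.9 CPM in the control libraries. It had 104.2, 105.6 and 109.7 CPM in the PDZK1 libraries. Every PDZK1 library lay below every control library, but the gap was narrow, with a log2 fold change of -0.21 (SE 0.037, 95% interval -0.29 to -0.12). Its call was lost without control replicate 2 (log2 fold change -0.21), without PDZK1 replicate 1 (-0.19) and without PDZK1 replicate 2 (-0.20), and in each fit on FPKM (fragments counted per length of transcript and sequencing depth).

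MLPH (ENSG00000115648, chromosome 2, 237485428 to 237555318, plus strand), the linker between RAB27A and myosin Va, had 798, 774 and 653 counts in the controls and 1438, 1414 and 1416 counts with PDZK1. As CPM these were 24.7, 25.1 and 23.7 against 44.9, 43.1 and 44.6. Libraries within a group lay close together and the groups far apart. The means were 24.5 ± 0.723 and 44.2 ± 0.940 CPM (SD, n = 3 each), a log2 fold change of 0.85 (SE 0.054, 95% interval 0.73 to 0.97). Of all tested genes, 431 had a change of larger size, and of the 193 called higher, 36 had a larger rise. Leaving out any 1 of the 6 libraries kept MLPH called, with log2 fold changes of 0.83 to 0.87. These fits reuse the libraries by which MLPH was chosen, so they add no support for its difference.

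UNC13D (ENSG00000092929, chromosome 17, 75827225 to 75844717, minus strand), the factor that primes RAB27A-bearing vesicles for fusion, had 2851, 2800 and 2646 counts in the controls and 1621, 1590 and 1366 counts with PDZK1. As CPM these were 88.3, 90.6 and 95.9 against 50.6, 48.5 and 43.1. The groups were apart by far more than their spread. The means were 91.6 ± 3.91 and 47.4 ± 3.88 CPM (SD, n = 3 each), a log2 fold change of -0.95 (SE 0.065, 95% interval -1.10 to -0.81). Of all tested genes, 328 had a change of larger size, and of the 329 called lower, 73 had a larger fall. UNC13D was called in each of the 17 alternatives, with log2 fold changes from -1.0 to -0.89. As for MLPH, these fits reuse the libraries by which the gene was chosen and are a description only.

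The sequences before the annotated starts of MLPH and RAB27B are shown because these are the members called between the groups that RefSeq's promoter table (GRCh38.p14) holds. The table matched 8 of the 10 genes, with 19 start sites. For each start the 250 bases upstream are given 5′ to 3′ on the strand of the gene, and capitals mark the E-box letters CACGTG, which MITF and other basic helix-loop-helix factors can bind. The windows are chr2:237487001-237487250 and chr2:237486160-237486409 for MLPH and chr18:54717607-54717856 and chr18:54828227-54828476 for RAB27B, all on the plus strand.
MLPH start 1: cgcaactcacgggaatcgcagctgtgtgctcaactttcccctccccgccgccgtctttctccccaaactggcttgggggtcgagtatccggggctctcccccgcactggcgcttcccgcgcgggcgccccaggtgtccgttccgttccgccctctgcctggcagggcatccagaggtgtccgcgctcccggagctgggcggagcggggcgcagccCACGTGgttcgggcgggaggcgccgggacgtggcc
MLPH start 2: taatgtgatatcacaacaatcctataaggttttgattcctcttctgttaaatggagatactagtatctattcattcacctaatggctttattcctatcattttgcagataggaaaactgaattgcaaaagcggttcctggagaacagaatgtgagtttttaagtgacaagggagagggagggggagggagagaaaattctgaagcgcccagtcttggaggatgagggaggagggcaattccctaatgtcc
RAB27B start 1: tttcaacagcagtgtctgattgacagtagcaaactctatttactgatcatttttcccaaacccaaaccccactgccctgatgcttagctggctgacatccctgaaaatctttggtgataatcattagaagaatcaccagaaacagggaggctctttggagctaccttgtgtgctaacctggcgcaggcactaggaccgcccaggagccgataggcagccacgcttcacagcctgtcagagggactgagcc
RAB27B start 2: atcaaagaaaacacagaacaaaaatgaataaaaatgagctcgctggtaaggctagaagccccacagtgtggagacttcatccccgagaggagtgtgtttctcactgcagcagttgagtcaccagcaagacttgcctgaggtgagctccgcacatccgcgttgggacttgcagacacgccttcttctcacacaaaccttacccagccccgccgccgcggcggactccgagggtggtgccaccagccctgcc
CACGTG stood 1 time in the first MLPH window, ending 29 bases before the start, and was not in the other windows printed. Among the 19 windows of the set it was in 2, the other being a window of EXPH5, against 6.34% of 35116 windows of the same length in the table. CATGTG, searched on both strands and not overlapping CACGTG, was in 1 of the 19, a window of MYRIP, against 9.42% of all windows. The first MLPH window was rich in G and C (72.4%) and the second was not (41.6%), with a median of 58.0% over all windows.

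**Figure D2:**
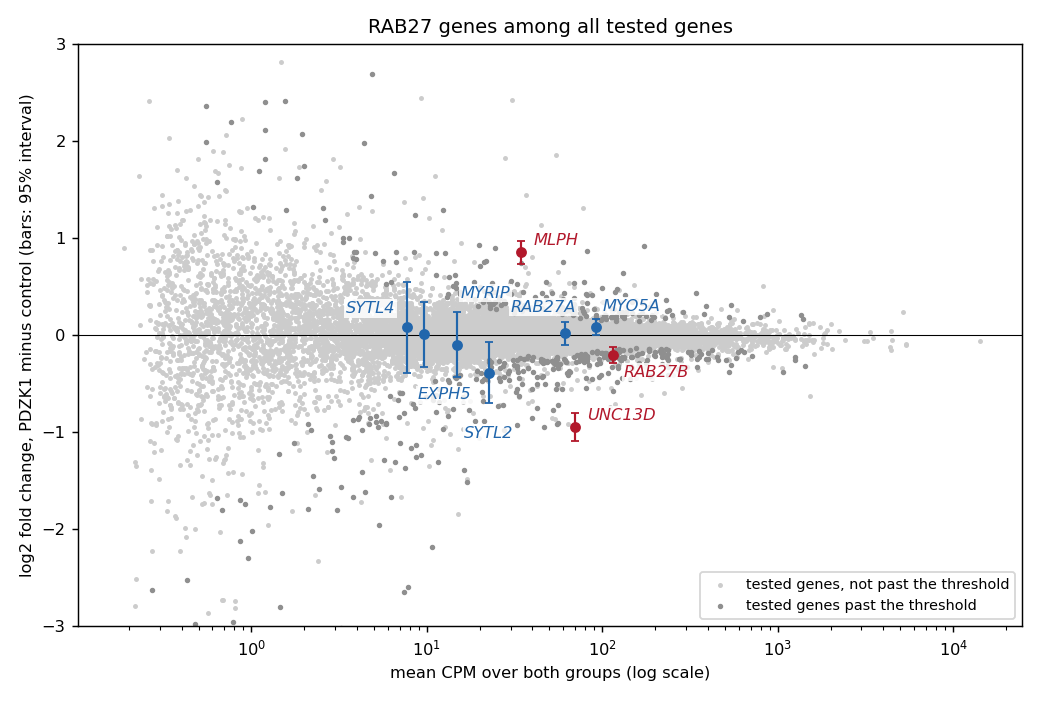
Log2 fold change (PDZK1 minus control) against mean CPM on a log axis for the tested genes, with the 9 tested RAB27 genes and their 95% intervals (red where called, blue where not). MLPH stands at 0.85 and UNC13D at -0.95, RAB27B at -0.21, and the other 6 lie between -0.39 and 0.083. Genes with a change above 3 in size, 35 in number, lie outside the axis.

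The motor MYO5A and the linker MYRIP differed little. MYO5A (ENSG00000197535, chromosome 15, 52307283 to 52529050, minus strand), which carries melanosomes along actin, had 87.0, 87.9 and 91.8 CPM in the control libraries and 94.8, 94.1 and 93.5 CPM in the PDZK1 libraries. All PDZK1 libraries lay above all control libraries, yet the gap was small and the gene was not called (log2 fold change 0.083, 95% interval -0.0038 to 0.17). Its direction turned on log2(FPKM + 0.1) with limma, at -0.053. MYRIP (ENSG00000170011, chromosome 3, 39808914 to 40260321, plus strand) had 12.8, 14.5 and 19.1 CPM in the control libraries and 12.8, 15.2 and 15.2 CPM in the PDZK1 libraries. Control replicate 3 alone was high, and the groups overlapped (log2 fold change -0.098, 95% interval -0.44 to 0.24). Without control replicate 3 the log2 fold change was 0.081.

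Among the synaptotagmin-like proteins, which bind RAB27 through an N-terminal domain and membrane lipids through C2 domains, no gene was called. SYTL2 (ENSG00000137501, chromosome 11, 85694224 to 85811159, minus strand) had 23.8, 23.9 and 29.7 CPM in the control libraries and 18.1, 23.4 and 17.5 CPM in the PDZK1 libraries. The highest PDZK1 library lay just under the lowest control library, with a log2 fold change of -0.39 (SE 0.13, 95% interval -0.70 to -0.075). Leaving out single libraries moved it from -0.53, without PDZK1 replicate 2, to -0.28, without control replicate 3. SYTL4 (ENSG00000102362, chromosome X, 100674491 to 100732123, minus strand), also called granuphilin, had 7.58, 8.97 and 5.98 CPM in the control libraries and 8.49, 9.49 and 5.83 CPM in the PDZK1 libraries. The third library was the lowest in each group, and the groups overlapped (log2 fold change 0.078, 95% interval -0.39 to 0.55). SRPX2 overlaps SYTL4 on the opposite strand (13.7 and 14.6 CPM). SYTL1 (ENSG00000142765, chromosome 1, 27342020 to 27353937, plus strand) had 3, 0 and 3 counts in the controls and 7, 0 and 0 counts with PDZK1. Only PDZK1 replicate 1 exceeded 3 counts, the upper limit for a library with none (0.0915 to 0.109 CPM at 95% confidence, counting error only), and 3 of the 6 libraries had no count, so no fold is given.

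EXPH5 (ENSG00000110723, chromosome 11, 108505431 to 108593738, minus strand), also called Slac2-b, a large RAB27 effector of keratinocytes, had 9.84, 7.61 and 11.6 CPM in the control libraries. It had 10.5, 8.94 and 9.74 CPM in the PDZK1 libraries. The PDZK1 values lay within the control range, with a log2 fold change of 0.0076 (95% interval -0.33 to 0.34).

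The genes around the 3 called members had medians close to 0. For the 10 tested genes on either side, taken in order along the chromosome of GENCODE release 29, the median log2 fold change was 0.030 around MLPH, with 12 of 20 higher and 1 called, which was lower. Around UNC13D it was -0.029, with 13 of 20 lower and 2 called lower. Around RAB27B it was 0.043, with 13 of 20 higher and 1 called lower.

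Levels can be compared between genes only per transcript length, as FPKM. Over the 6 libraries RAB27A had the highest mean, 22.7 ± 1.83 FPKM (SD, n = 6), followed by UNC13D (17.3 ± 6.06), RAB27B (15.1 ± 1.15), MLPH (11.3 ± 3.62), SYTL2 (9.49 ± 1.87) and MYO5A (8.78 ± 1.41). The low end held MYRIP (2.77 ± 0.473 FPKM), SYTL4 (1.48 ± 0.437) and EXPH5 (0.867 ± 0.121), with SYTL1 at 0 to 0.0834. RAB27A lay above 76.6% of tested genes by mean FPKM and EXPH5 above 14.0%. Of the 8 pairs of neighbours in this order, 2 did not overlap over the 6 libraries, MYO5A above MYRIP and MYRIP above SYTL4, each in 6 of 6 libraries. An exact permutation test of the paired differences in log2 FPKM (sign flips, two-sided) gave p = 0.0312 for both, the smallest it allows, and an adjusted p of 0.125 over the 8 pairs, so no pair passed 0.05. The other 6 pairs overlapped over the 6 libraries. The test treats libraries of both groups alike, though MLPH and UNC13D were chosen for a difference between the groups. It therefore cannot decide the order of pairs that hold either gene. The order of the group means differed between the groups, and 5 of the 8 pairs stood the other way round in 1 of them. In the control means UNC13D was above RAB27A and MLPH below SYTL2. In the PDZK1 means UNC13D was below RAB27B (11.9 and 14.1 FPKM), MLPH above RAB27B (14.4 FPKM) and SYTL2 below MYO5A (8.15 and 8.64 FPKM). Within the group where the means turned, the libraries of UNC13D and RAB27A overlapped. So did those of MLPH and RAB27B and those of SYTL2 and MYO5A. RAB27B stood above MLPH in 5 of the 6 libraries.

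**Figure D3:**
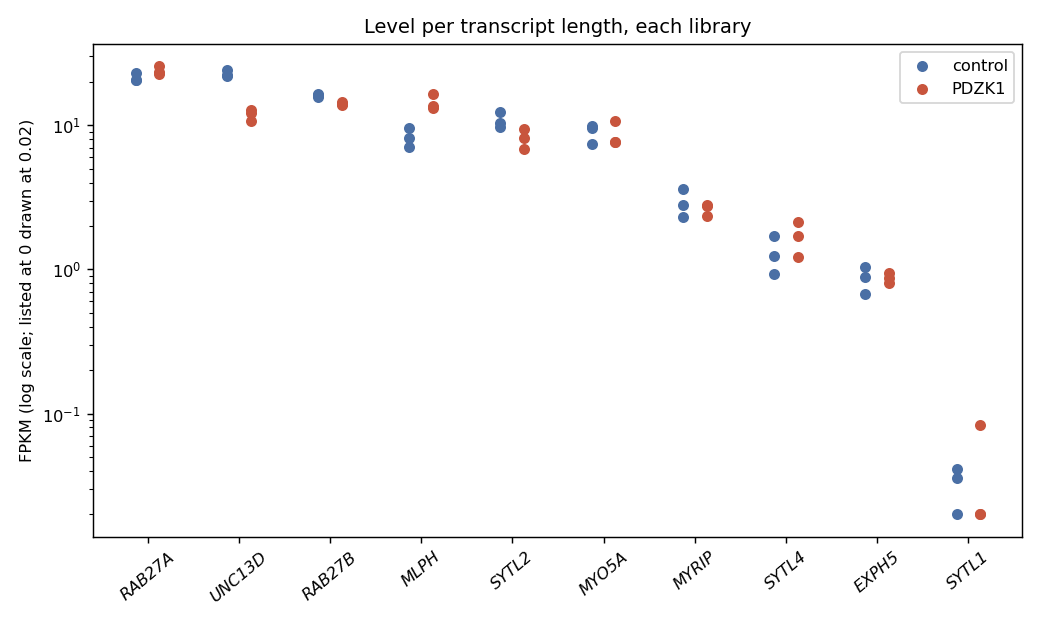
FPKM on a log axis for the 10 genes in order of their mean, with 3 control and 3 PDZK1 libraries each, and values listed at 0 drawn at 0.02. UNC13D stands at 22.1 to 24.0 FPKM in the controls, level with RAB27A, and at 10.7 to 12.8 FPKM with PDZK1, under MLPH at 13.2 to 16.4 FPKM.

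Within the control libraries UNC13D had 22.1, 22.3 and 24.0 FPKM and MLPH 7.07, 9.63 and 8.19 FPKM, so the docking factor stood at 3.12, 2.32 and 2.93 times the melanosome linker. In the PDZK1 libraries UNC13D had 12.8, 12.1 and 10.7 FPKM and MLPH 16.4, 13.6 and 13.2 FPKM, a ratio of 0.775, 0.890 and 0.814. In FPKM the order of the pair was thus turned in 3 of 3 PDZK1 libraries. Both genes were chosen for their difference between the groups, so this turn restates the choice. The length behind the FPKM of MLPH also varied between libraries. MLPH per MYO5A went from 0.942 ± 0.182 to 1.68 ± 0.131 and MLPH per RAB27A from 0.388 ± 0.0669 to 0.601 ± 0.0366 (SD, n = 3 each). RAB27A per RAB27B was 1.33 ± 0.0539 in control and 1.70 ± 0.149 in PDZK1 libraries. The sum of RAB27A and RAB27B was 37.6 ± 1.57 and 38.0 ± 1.22 FPKM. RAB27A had 21.5 and 23.9 FPKM although its CPM hardly differed, with mean implied transcript lengths of 2807 and 2586 bases. By library these lengths were 2754, 2943 and 2723 bases in the controls and 2319, 2717 and 2722 bases with PDZK1, so PDZK1 replicate 1 alone was far lower. The sum of the 7 effectors in the chosen set that bind RAB27 (MLPH, MYRIP, UNC13D, SYTL1, SYTL2, SYTL4 and EXPH5) was 47.0 ± 2.84 and 39.6 ± 3.58 FPKM. Of that sum, MLPH made up 17.7% ± 2.67 in control and 36.3% ± 2.83 in PDZK1 libraries, and UNC13D 48.5% ± 0.927 and 29.9% ± 0.299. These are shares of the chosen effectors, not of all proteins that bind RAB27. Genes outside the sum included SYTL3, RPH3AL, SYTL5, WWC1 and CORO1C, with means over all libraries of 2.35, 1.70, 1.14, 55.2 and 157 FPKM.

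FPKM also depend on which transcripts the authors' program assigned reads to, and the ratio of counts to FPKM shows where the length used varied between libraries. Expressed as a transcript length, this was steady for UNC13D (3943 to 4030 bases over the 6 libraries), RAB27B (7522 to 7575 bases) and EXPH5 (11053 to 11181 bases). MYO5A fell into 2 levels that did not follow the groups, with 9082, 8832 and 12199 bases in the control libraries and 8845, 12364 and 12329 bases in the PDZK1 libraries, where the longest annotated transcript has 12225. MLPH had 3464, 2571 and 2851 bases in the control libraries and 2727, 3173 and 3402 bases in the PDZK1 libraries, over 23 annotated transcripts. SYTL4 varied most among the 9 members measured, with 4417, 7188 and 6343 bases against 4990, 4453 and 4818. Some implied lengths exceeded the longest annotated transcript, which has 4847 bases for SYTL4, 7281 for RAB27B, 5077 for MYRIP and 10187 for EXPH5. The values are therefore compared between libraries only, and are not read as the length of a given transcript. The highest value exceeded the lowest by more than 1.25 times in 4 of the 9 members (RAB27A, MLPH, MYO5A and SYTL4) and in 9.01% of 11250 tested genes with at least 100 counts in every library, a limit chosen after values had been seen. For these 4 genes the FPKM levels, sums and ratios above carry that variation, which the counts do not.

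**Figure D4:**
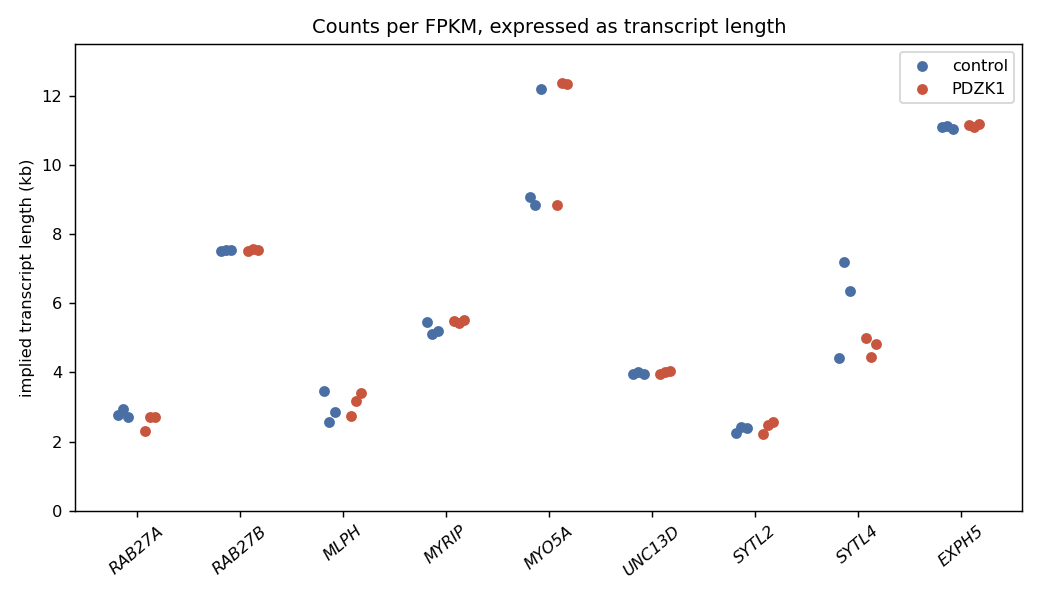
Transcript length implied by counts per FPKM, in kilobases, for 9 genes in each of the 3 control and 3 PDZK1 libraries. UNC13D, RAB27B and EXPH5 are tight, while MYO5A splits into values near 9082 and near 12199 bases in both groups.

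The remaining genes of the pathway were followed in 7 lists with 157 genes, of which 144 were tested. Of these, 9 were called (6.25%), with 1 higher and 8 lower, against 3.83% of all genes, and their median log2 fold change was -0.0088. The count depended on single libraries. Leaving out control replicates 1, 2 or 3 gave 3, 2 and 11 calls, and leaving out PDZK1 replicates 1, 2 or 3 gave 1, 2 and 1. All 9 were kept without control replicate 3. The adjusted p-values that follow are from the edgeR test over all genes.

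In the list of other RAB27 effectors and relatives, no gene was called by edgeR, with 2 at an unadjusted p under 0.05, or by DESeq2, with 0 calls. WWC1, which also binds RAB27A, was listed among the regulators and is given there. Of 12 listed, 10 were tested, with 6 higher and 4 lower and a median of 0.030. The 2 with an unadjusted p under 0.05 were SYTL5 (0.45, adjusted p 0.176) and RPH3AL, also called Noc2 (0.39, adjusted p 0.238). UNC13B, a relative of UNC13D, had 0.046 (adjusted p 0.736). MYO7A, the motor that MYRIP engages, had -0.41 with a wide interval (-1.34 to 0.53). The 22 listed RAB3 and melanosome RABs, 20 of them tested, also gave no call by edgeR, with 2 at an unadjusted p under 0.05, and 0 by DESeq2, with 10 higher and 10 lower. RAB32 and RAB38, which direct pigment enzymes to melanosomes, had -0.049 and -0.075.

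In the list of RAB27 regulators, which also holds exchange and activating factors of related RABs, 16 of 17 genes were tested and 2 were called, both lower. WWC1 (KIBRA), a scaffold known to bind RAB27A, fell from 299.8 ± 15.2 to 252.5 ± 2.94 CPM (SD, n = 3 each), a log2 fold change of -0.25 (adjusted p 0.0116). DENND4A, an exchange factor for other RABs, fell from 33.9 ± 1.98 to 28.3 ± 0.523 CPM (-0.26, adjusted p 0.0443). RAB11A and SLC24A1 overlap DENND4A. The DENND4A call was lost on leaving out any library but control replicate 3, and the WWC1 call held in 3 of 6 such fits. Of the 20 tested neighbours of WWC1, 15 were lower, with a median of -0.11. MADD, the exchange factor for RAB27 and RAB3, was named after its value was seen, at 44.1 ± 2.33 and 51.6 ± 0.855 CPM (0.22, adjusted p 0.0551). It was not called by edgeR and was called by DESeq2. The 14 regulators not called had log2 fold changes from -0.15 to 0.22.

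Of 28 genes of vesicle docking and fusion, 24 were tested and 3 were called, all lower. STX11, a syntaxin of cytotoxic granule release that works in the same pathway as UNC13D, fell from 2.91 ± 0.189 to 1.47 ± 0.279 CPM (SD, n = 3 each), a log2 fold change of -0.98 (adjusted p 0.0425). SNAP23, a plasma membrane SNARE, fell from 56.7 ± 3.74 to 47.2 ± 2.12 CPM (-0.27, adjusted p 0.0496), and LRRC57 overlaps it. VAMP3, a vesicle SNARE, fell from 135.5 ± 5.55 to 115.1 ± 2.70 CPM (-0.24, adjusted p 0.0115). STXBP2, the partner of STX11, was named after its value was seen and was not called by edgeR (40.7 ± 2.14 and 34.4 ± 1.90 CPM, -0.24, adjusted p 0.0690), though DESeq2 called it. The calls of STX11 and SNAP23 were lost on leaving out any library but control replicate 3, and that of VAMP3 held in 3 of 6. The 21 genes not called had log2 fold changes from -0.54 to 1.53, with 10 higher and 11 lower. The highest, SNAP25, was also named after its value was seen (0.239 ± 0.0651 and 0.706 ± 0.136 CPM, edgeR adjusted p 0.0765). It had at most 25 counts in a library.

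Of 30 genes of melanosome and lysosome-related organelle assembly, all tested, the kinesin KIF1B alone was called, falling from 86.0 ± 5.63 to 71.2 ± 0.895 CPM (-0.27, adjusted p 0.0220). This call too held, of the 6 fits without a library, in that without control replicate 3 alone. KIF1B (chromosome 1, 10210805 to 10381603) and VAMP3 (chromosome 1, 7771269 to 7781432) lie in a region where 20 of the 20 tested neighbours of each were lower, with medians of -0.23 and -0.26 and 6 called around each. The part of this region in both falls was not tested. Of 13 genes of pigment synthesis, 9 were tested and none was called by edgeR, with 0 at an unadjusted p under 0.05, or by DESeq2, with 0 calls. They included MITF (-0.100), a master regulator of pigment cells, and GPR143 (0.046), a melanosome receptor at 109.3 ± 1.05 and 112.9 ± 2.81 CPM, while TYR was at most at 2 counts and OCA2 at 0.

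Of 35 genes of exosome release, all tested, 3 were called. The tetraspanin CD9, an exosome marker, fell from 73.1 ± 2.23 to 55.0 ± 1.49 CPM (-0.41, adjusted p 0.00160) and was called in all 17 alternatives. SDC4 fell from 210.1 ± 6.36 to 186.8 ± 7.35 CPM (-0.17, adjusted p 0.050), at the threshold itself and called in 3 of the 17. SDC1 rose from 63.8 ± 8.19 to 93.4 ± 7.93 CPM (0.55, adjusted p 0.0303). Both are syndecans, surface proteoglycans whose tails bind the exosome adaptor syntenin, and the SDC1 call was lost on leaving out any library but control replicate 3. DESeq2 also called SDCBP, which is syntenin itself. The 32 not called by edgeR had log2 fold changes from -0.27 to 0.22.

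**Figure D5:**
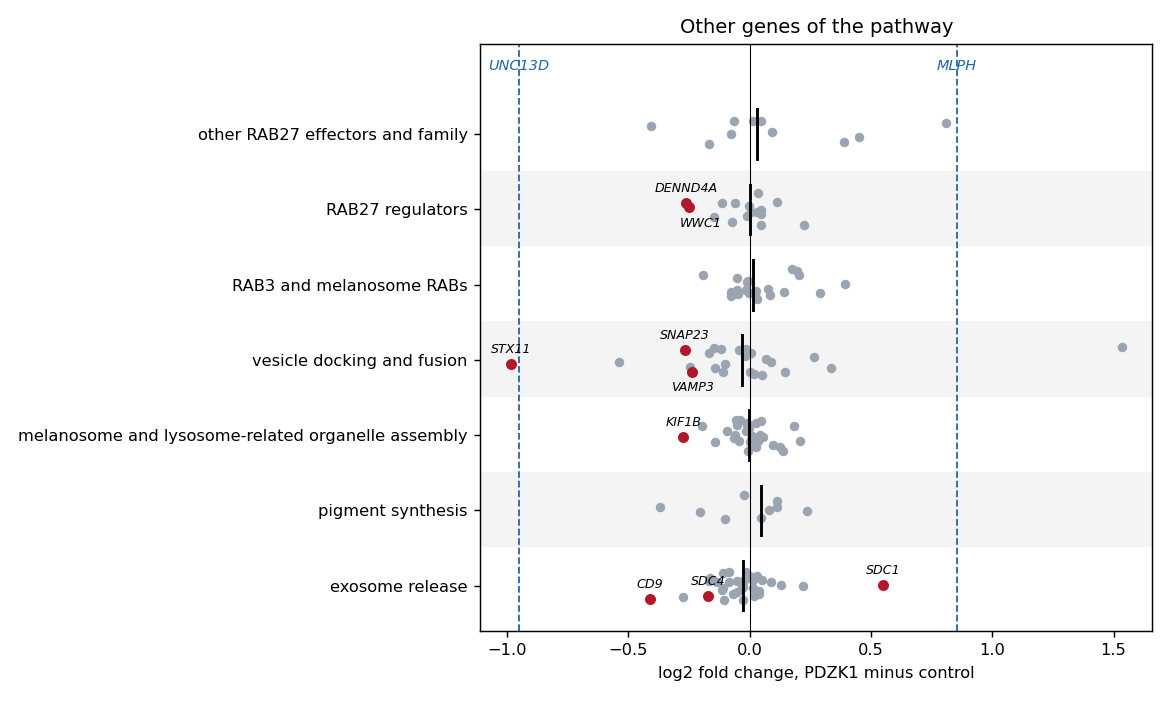
Log2 fold change (PDZK1 minus control) of the tested genes in the 7 lists, 1 point per gene, red where called, with the list median as a black bar and MLPH (0.85) and UNC13D (-0.95) as dashed lines. The medians lie between -0.031 and 0.046, and the 9 called genes run from STX11 (-0.98) to SDC1 (0.55).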

How the data were processed

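Cells were grouped by the labelled lentivirus. The authors deposited estimated counts per gene as whole numbers, and FPKM per gene. The submitters' processing notes name fastp 0.20.1, HISAT2 2.2.1 and GRCh38, while the counting program and strand setting are not given in the sources used here. Each table has 3 further columns that match no sample and were not used here. The 853 assembled loci were left out of the tests.

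Counts were tested with edgeR 4.0.16 under R 4.3.3 (filterByExpr, TMM, robust quasi-likelihood, no covariates) with Benjamini-Hochberg adjustment over 13645 genes, checked on simulated counts. Totals were 27970618 to 32804567 counts per library. Intervals are 95%. Alternatives used DESeq2 1.42.0, limma 3.58.1 on log2(FPKM + pseudocount of 1 or 0.1), other scalings and filters, PDZK1 left out, a replicate block, and each library left out. Replicates differed beyond counting error (chi-square per degree of freedom 6.80 to 19.1).

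The members and lists were chosen with earlier results of these data known. Named genes were the members, PDZK1, cell type markers, up to 5 called genes per list and direction, and others said to be chosen later. Further genes not called by edgeR, such as SYTL5, RPH3AL, UNC13B, MYO7A, RAB32, RAB38, GPR143 and SDCBP, were named outside this rule. They are not an unselected sample of their lists. Proteins and the promoters of UNC13D and SYTL2 are not reported here.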

Additional observations from a re-analysis of the deposited data

How the results depend on the processing

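Among the members, UNC13D was called in 17 of 17 alternatives (log2 fold change -1.0 to -0.89), MLPH in 16 (0.73 to 0.87) and RAB27B in 10 (-0.23 to -0.18), and the other 6 tested members in none. All these runs reuse the libraries by which the members were chosen, so they describe the effect of processing only. The count of members called was 1 (UNC13D) by limma on log2(FPKM + 1) with no filter on the mean, where MLPH was 0.73 and not called, and 2 to 3 without single libraries. The count over all genes was 793 with DESeq2 and 191, 187 and 184 on FPKM with a pseudocount of 1, of 0.1 and of 1 with no filter. Without single libraries it ran from 181 to 875. With library totals only it was 517, of which 241 were higher, against 193 of 522. The count of pathway genes called was 12 with DESeq2, including the 9, 2 in each of the 3 fits on FPKM and ran from 1 to 11 without single libraries. The cause was not tested, though the fits without a library hold fewer samples. A fit with the replicate number as block called 163 genes over all and 2 pathway genes, but not RAB27B. Across genes, residuals of libraries that share a number had correlations of -0.046, -0.056 and -0.14, and 0 of the 6 libraries correlated best with its own number, so the numbers were not taken to pair libraries. In the order of levels, 2 of 8 neighbour pairs did not overlap over all libraries, 5 within the control libraries and 6 within the PDZK1 libraries, where each group alone cannot reach a p under 0.25. No member that was called changed direction in any alternative run. On FPKM, RAB27A moved to 0.15 and MYO5A turned to between -0.053 and -0.047. Depth limited SYTL1, and the counts cannot separate overlapping genes.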
